A study of Homo sapiens with 6 samples.

Results

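The genes described here are the 4 classical families of axon guidance cues and their receptors: ephrins with Eph receptors, semaphorins with plexins and neuropilins, netrins with DCC and the UNC5 receptors, and Slits with Robo receptors. Members were taken by gene symbol alone (EPHA, EPHB, EFNA, EFNB, SEMA, PLXN, NRP1, NRP2, numbered NTN, DCC, UNC5A to UNC5D, SLIT and ROBO), so that no measured value enters this rule of membership. The families and the lists below were chosen with earlier results of these data known. The probe set read for each gene was picked by its mean level. The rule found 68 genes of the 19775 on the array, carried by 171 probe sets that each name that gene only. They were measured in ONS-76, an established human medulloblastoma cell line, with 3 arrays of cells that had received an siRNA against KDM1A (LSD1, a histone demethylase that acts on mono- and dimethylated H3K4) and 3 arrays of control cells. The sample labels call the target KDM5A, with LSD1 beside it, and state harvest 48 h after knockdown, where the study's results and figure legend give a later time. The study's methods give KDM1A as the target of its 1 siRNA and 3 independent transfections per condition. Control cells had received the transfection reagent without any siRNA, so that loss of KDM1A and delivery of an siRNA cannot be told apart.

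All levels below are the deposited log2 RMA values of Affymetrix U133 Plus 2.0 probe sets, on which a difference of 1 is a doubling. The targeted gene was checked before any other. KDM1A stood at 6.25, 6.34 and 6.31 in the siKDM1A arrays against 9.50, 9.57 and 9.49 in control arrays, a 9.33-fold lower level (log2 fold change −3.22, limma adjusted p = 7.1e-07). None of the 5 KDM5A probe sets passed the test in limma (2 had an unadjusted p under 0.05), and the brightest differed by −0.27 ± 0.09 (SE, adjusted p = 0.14). Array medians lay between 5.09 and 5.16. Of 11 measured genes on a neural progenitor and medulloblastoma list, 3 lay below the median level of all probe sets (5.12) and OTX2 alone below the lower quartile (3.66). The mean of that list was 7.14 to 7.18 in siKDM1A arrays against 7.20 to 7.29 in control arrays, and SOX2, ZIC1 and ZIC2 fell by 0.43, 0.39 and 0.40. Of 5 neuronal markers MAP2 and SYT1 rose by 1.12 and 1.15 (list mean 7.18 to 7.29 against 6.77 to 6.81 in control). TUBB3 differed by −0.19 (adjusted p = 0.33), RBFOX3 by −0.01 (adjusted p = 0.99) and STMN2 by 0.06 (adjusted p = 0.89). The median difference of the neuronal list was 0.06. Of 4 endothelial markers PECAM1 rose by 0.35, CDH5 differed by −0.34 (adjusted p = 0.20) and KDR by 0.26 (adjusted p = 0.21), with list means of 5.85 to 5.99 in siKDM1A arrays against 5.76 to 5.87 in control arrays. Of 11 astrocyte, oligodendrocyte, immune and fibroblast markers 0 passed, and 1 had an unadjusted p under 0.05. Over all genes 8.92% were called at the adjusted threshold in limma, 3.45% higher and 5.46% lower. These marker lists are too short for their counts to be set against such shares. For ACTB, the 3′ control probe set exceeded the 5′ one by 0.72 to 1.41 in siKDM1A arrays and by 0.86 to 1.43 in control arrays. What part these values have in the differences below was not tested, and because RNA came from whole cultures, a change in the share of cells of one kind and a change of RNA per cell cannot be told apart.

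Axon guidance molecules steer growing neurites by attracting or repelling the growth cone, and the same molecules control migration, adhesion and vessel growth outside the nervous system. Ephrins are bound to the membrane and signal to Eph receptor tyrosine kinases on touching cells, with signals running both ways. Secreted class 3 semaphorins bind a neuropilin that presents them to a plexin, whereas most other semaphorins bind plexins directly. Netrins attract through DCC and repel through UNC5 receptors, and Slits are secreted proteins that repel through Robo receptors. Ephrins, semaphorins and Slits are all known for their part in the patterning of the cerebellum, the tissue in which medulloblastoma arises.

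Promoter sequences of 3 genes are shown, chosen by the results below. SLIT2 was the cue called higher on every one of its probe sets, NRP2 a receptor called higher on 3 of 11, and SEMA3G the gene called lower on its brightest. Each sequence is the RefSeq window of 300 bases (250 before the transcript start and 50 after it) of GRCh38.p14, 5′ to 3′ on the gene's own strand, with CG dinucleotides in capitals.
SLIT2 (chr4:20251655-20251954, plus strand): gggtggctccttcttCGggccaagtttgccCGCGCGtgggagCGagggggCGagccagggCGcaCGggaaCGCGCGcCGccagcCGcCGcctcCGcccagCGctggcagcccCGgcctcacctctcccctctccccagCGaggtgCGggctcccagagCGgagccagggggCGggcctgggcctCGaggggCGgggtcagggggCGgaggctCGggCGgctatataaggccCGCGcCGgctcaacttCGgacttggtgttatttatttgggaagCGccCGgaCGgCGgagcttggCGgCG
NRP2 (chr2:205682251-205682550, plus strand): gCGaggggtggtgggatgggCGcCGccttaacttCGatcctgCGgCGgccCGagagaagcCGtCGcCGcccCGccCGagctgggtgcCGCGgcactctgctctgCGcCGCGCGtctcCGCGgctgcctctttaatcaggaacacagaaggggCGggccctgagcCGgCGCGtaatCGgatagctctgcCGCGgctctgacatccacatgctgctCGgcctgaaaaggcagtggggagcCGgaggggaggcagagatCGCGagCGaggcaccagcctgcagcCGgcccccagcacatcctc
SEMA3G (chr3:52445054-52445353, minus strand): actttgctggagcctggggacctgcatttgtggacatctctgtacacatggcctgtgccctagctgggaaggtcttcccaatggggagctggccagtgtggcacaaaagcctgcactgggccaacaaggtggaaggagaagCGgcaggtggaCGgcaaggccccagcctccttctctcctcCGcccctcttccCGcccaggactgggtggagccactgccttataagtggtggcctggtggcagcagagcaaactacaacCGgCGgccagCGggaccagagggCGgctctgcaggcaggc
The SLIT2 window held 36 CG dinucleotides, the NRP2 window 33 and the SEMA3G window 8. These 3 windows do not stand for the called genes. Windows of other genes called higher held from 2 (SEMA3C, whose other window held 46) to 49 (EFNB2). Those of EPHA4, called lower on 1 probe set, held 12 and 33. A link between CG count and direction was not tested. The RefSeq table gave 89 windows for 58 of the 68 genes, with a median of 21 CG dinucleotides against 14 over all 35116 windows. The E-box letters CANNTG, read on both strands, stood in 59.6% of the windows of axon guidance genes and in 68.7% of all windows. The AP-1 letters TGANTCA, also read on both strands, stood in 1.12% against 7.71%. The motifs can share letters where they meet, and such matches describe the letters of the window only.

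The question put to these arrays was which guidance genes changed when KDM1A was depleted. With the brightest probe set of each gene and Benjamini-Hochberg adjustment over all 54613 probe sets, 9 of the 68 genes passed an adjusted p of 0.05 in limma. SLIT2, EPHA3, EPHB1, EFNB2, SEMA3C, SEMA7A, NRP2 and UNC5D rose, and SEMA3G fell. The 8 higher genes were 11.8% of the list, against 3.45% called higher among all 19775 genes. The 1 lower gene was 1.47%, against 5.46% called lower among all genes. The calls were spread over cues and receptors, with 4 of 35 ligands and 4 of 33 receptors called higher. The changes were of modest size, between 1.32-fold and 1.72-fold for the genes that rose and 2.04-fold for SEMA3G. The number called higher was 4 without siKDM1A a, siKDM1A b or control a, and 2 without control b or control c, while SEMA3G stayed the 1 lower gene in each case. The one-way ANOVA that the study's methods name called EPHA3 alone on the brightest probe sets, and 1 dimmer probe set each of SLIT2 (adjusted p = 0.043) and SEMA5A (adjusted p = 0.045).

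**Figure D1:**
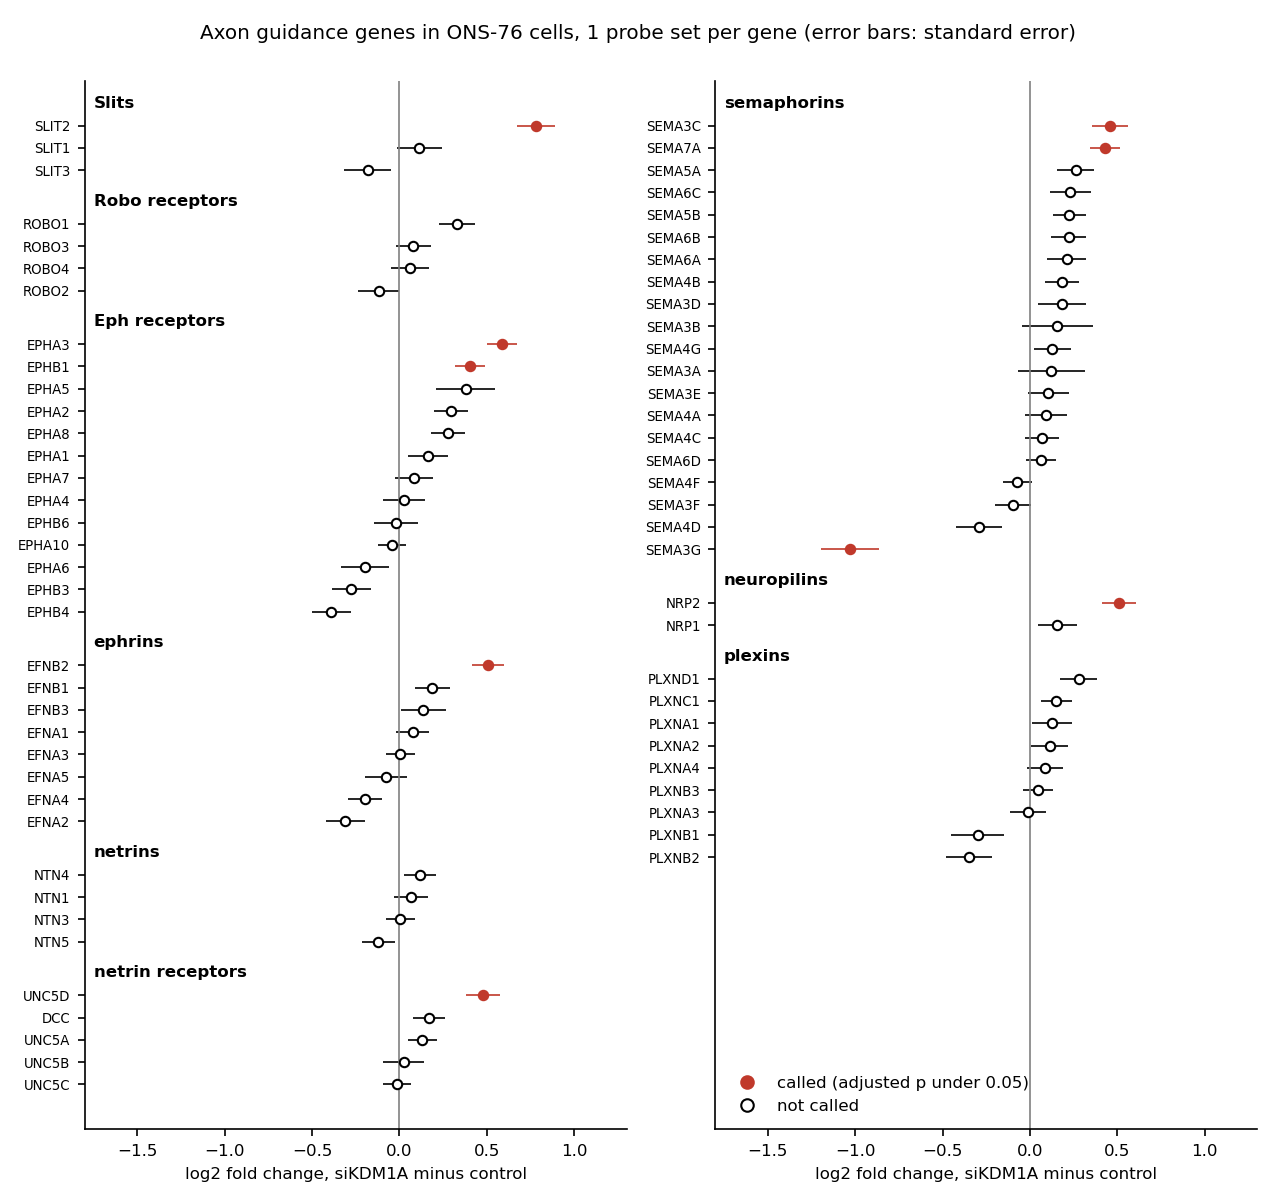
Log2 fold change (siKDM1A minus control) of the brightest probe set of each of the 68 axon guidance genes, grouped by family, with filled points for genes at an adjusted p under 0.05, open points for the others, and bars of 1 standard error. SLIT2 at 0.78 stands at the upper end and SEMA3G at −1.03 at the lower end, and no plexin, netrin or Robo receptor is called on this probe set.

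The Slit and Robo family held the largest rise. SLIT2, the secreted Robo ligand, was measured at 7.96, 8.09 and 7.72 in siKDM1A arrays against 7.20, 7.13 and 7.08 in control arrays. Every siKDM1A array lay above every control array, by a log2 fold change of 0.78 ± 0.11 (SE, 1.72-fold, limma adjusted p = 0.0036). A dimmer SLIT2 probe set gave 7.03, 7.20 and 7.04 in siKDM1A arrays against 6.24, 6.01 and 6.09 in control arrays (1.97-fold, adjusted p = 0.00073). The third gave 5.92, 6.03 and 6.37 against 5.03, 5.02 and 4.89 in control arrays (2.18-fold, adjusted p = 0.0011). SLIT2 was the sole gene with several probe sets to pass on all of them.

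On their brightest probe sets the other Slits and the 4 Robo receptors did not pass in limma or in the ANOVA, and 1 of them, ROBO1, had an unadjusted p under 0.05. SLIT1 and SLIT3 differed by 0.11 ± 0.13 (adjusted p = 0.69) and −0.18 ± 0.14 (SE, adjusted p = 0.54). ROBO1, the receptor through which SLIT2 repels migrating cells and axons, was at 10.03, 9.89 and 9.73 in siKDM1A arrays against 9.65, 9.46 and 9.55 in control arrays. Its groups did not overlap, but the difference of 0.33 had an adjusted p of 0.11 (95% confidence interval 0.10 to 0.56). ROBO3 differed by 0.08 and the endothelial receptor ROBO4 by 0.06, both with overlapping groups. ROBO2 stayed below the lower quartile of all probe sets. Its brightest probe set differed by −0.12 (adjusted p = 0.66), while a dimmer one read 3.00, 2.97 and 2.87 against 2.60, 2.36 and 2.44 in control arrays (0.48, adjusted p = 0.018). ROBO2 had thus no common direction over its probe sets. The call at 0.018 was lost without siKDM1A a, siKDM1A b, control b or control c.

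**Figure D2:**
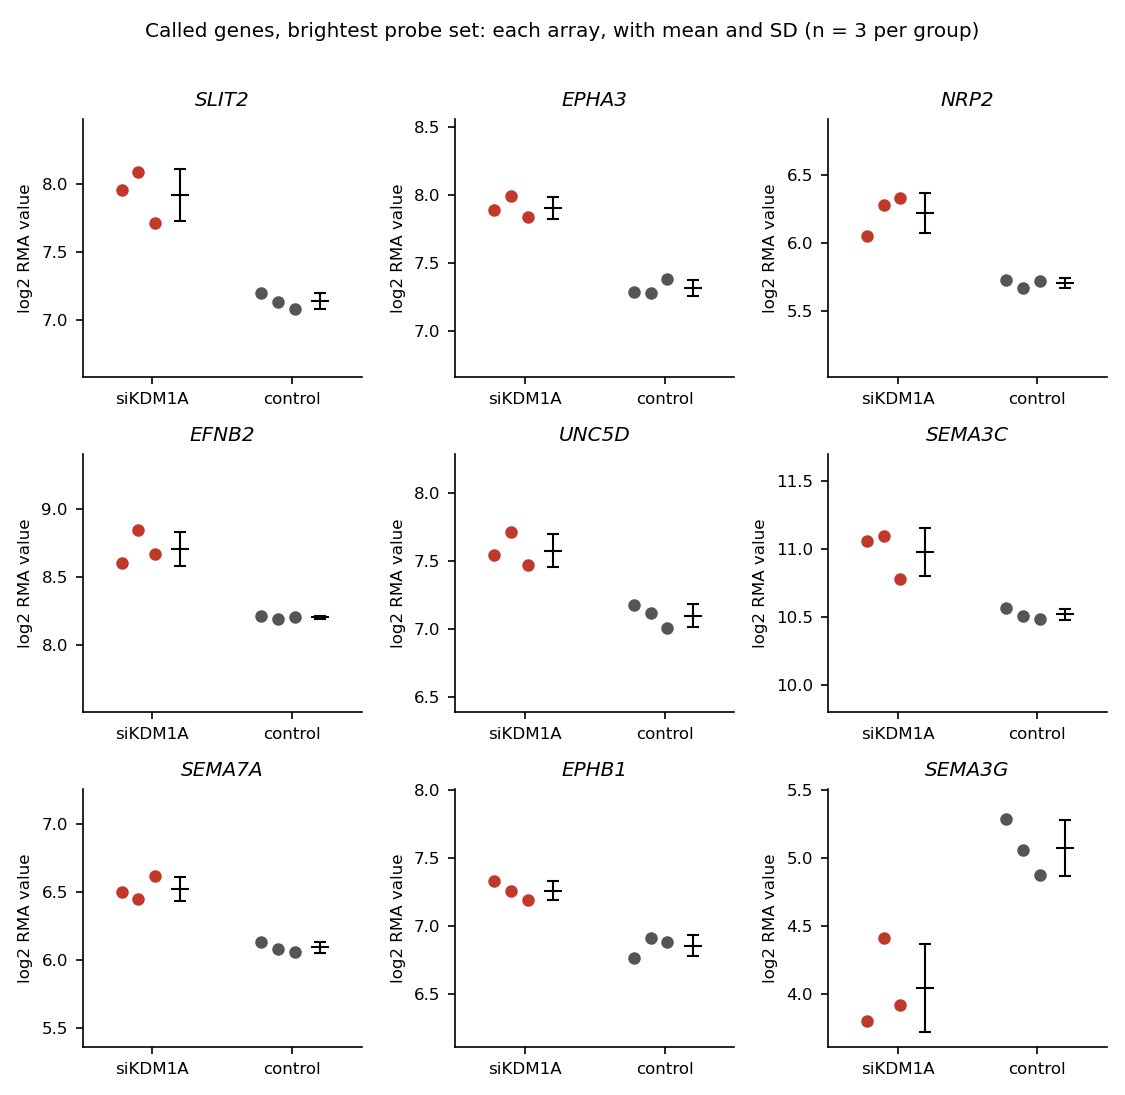
Log2 RMA level of the 9 called genes in each array, siKDM1A arrays left of control arrays, 1 point per array on the brightest probe set, with the mean and SD over its arrays beside each group. In all 9 panels the siKDM1A points and the control points do not overlap, with SEMA3G alone lower in siKDM1A arrays. The 9 genes were chosen by the test on these same arrays, so this separation adds no support to their calls. Of all genes, 31.6% had groups apart.

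Of 13 Eph receptors, 2 rose, EPHA3 and EPHB1. EPHA3, a receptor of A-type ephrins, was at 7.88, 7.99 and 7.84 in siKDM1A arrays against 7.28, 7.28 and 7.38 in control arrays. The lowest siKDM1A array exceeded the highest control array, and the fold change was 1.51 (log2 0.59 ± 0.09, adjusted p = 0.0046). Another EPHA3 probe set rose by 0.45 (adjusted p = 0.021), a call lost without siKDM1A a, siKDM1A b or any 1 control array. The last, the dimmest and the one without the _s_at suffix that marks probes shared by several transcripts, averaged 2.07 in siKDM1A arrays and 2.06 in control arrays and differed by 0.02. EPHB1, which binds B-type ephrins, was at 7.33, 7.25 and 7.19 in siKDM1A arrays against 6.77, 6.91 and 6.88 in control arrays. The groups did not overlap and EPHB1 rose 1.32-fold (log2 0.40 ± 0.09, adjusted p = 0.028). The dimmer EPHB1 probe sets gave 0.27 (adjusted p = 0.36) and −0.18 (adjusted p = 0.57), and the call was lost when any array other than siKDM1A c was left out, with an adjusted p of up to 0.11.

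Among the remaining 11 Eph receptors the differences ran between −0.39 and 0.38 and none passed on the brightest probe set. EPHA5, another receptor of A-type ephrins, stood at the upper end, with overlapping groups. EPHA2 was at 11.10, 11.08 and 11.26 in siKDM1A arrays against 10.97, 10.74 and 10.83 in control arrays (0.30, adjusted p = 0.13). EPHB4, a receptor of ephrin-B2 known from vessels, lay on the other side, at 10.06, 9.84 and 9.91 against 10.51, 10.19 and 10.27 in control arrays (−0.39, adjusted p = 0.078). Neither EPHA2 nor EPHB4 had overlapping groups. With a prior that varied with intensity and allowed for outlying variances, both passed, EPHA2 at an adjusted p of 0.038 and EPHB4 at 0.029.

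EPHA4, which binds ephrins of both types, gave different answers on its 5 probe sets. The brightest averaged 6.84 in siKDM1A arrays and 6.81 in control arrays (log2 fold change 0.03, adjusted p = 0.94). A second of nearly the same brightness read 6.38, 6.56 and 6.30 in siKDM1A arrays against 7.11, 7.26 and 7.25 in control arrays, without overlap (−0.79 ± 0.10, adjusted p = 0.0022). The other EPHA4 probe sets differed by −0.01, −0.10 and −0.04, so that 1 of 5 reported a lower level. EPHA1 was likewise called on a dim probe set only, at 2.83, 3.12 and 3.11 against 2.46, 2.38 and 2.46 in control arrays (0.59, adjusted p = 0.010), a level below the lower quartile of all probe sets. Its brightest differed by 0.16 (adjusted p = 0.51).

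Of 8 ephrins, EFNB2 rose. This transmembrane ligand of EphB receptors and of EphA4 was at 8.61, 8.85 and 8.67 in siKDM1A arrays against 8.22, 8.19 and 8.21 in control arrays. The control arrays lay within a narrow band, well under the lowest siKDM1A array, and the difference was 0.50 ± 0.09 (SE, 1.42-fold, adjusted p = 0.013). The dimmer EFNB2 probe set differed by 0.10 ± 0.20 (adjusted p = 0.84), and the call did not hold without control b or control c (adjusted p = 0.056 and 0.065). EFNA1, a ligand anchored by glycosylphosphatidylinositol, differed by 0.08 (adjusted p = 0.74). EFNA2 had the largest difference among ephrins that did not pass, −0.31 (adjusted p = 0.17), with overlapping groups. Its dimmer probe sets differed by −0.02 (adjusted p = 0.97) and, without overlap, by 0.25 (adjusted p = 0.24).

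In the semaphorin family of 20 genes, SEMA3C and SEMA7A rose and SEMA3G fell. SEMA3C, a secreted semaphorin that acts through neuropilins, was at 11.06, 11.10 and 10.78 in siKDM1A arrays against 10.57, 10.51 and 10.49 in control arrays. All siKDM1A arrays were above all control arrays, a 1.37-fold rise (log2 0.46 ± 0.10, adjusted p = 0.033). The second SEMA3C probe set scattered more, with a difference of 0.70 ± 0.30 (adjusted p = 0.25). SEMA7A, a membrane-anchored semaphorin that binds plexin C1 and integrins, was at 6.50, 6.45 and 6.62 in siKDM1A arrays against 6.13, 6.08 and 6.06 in control arrays. The groups were apart on both of its probe sets, at 0.43 ± 0.09 (1.35-fold, adjusted p = 0.020) and 0.20 ± 0.10 (adjusted p = 0.31). Without siKDM1A a or any of the control arrays neither gene passed, with an adjusted p of up to 0.14 for SEMA3C and 0.099 for SEMA7A, and SEMA3C was also lost without siKDM1A b.

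SEMA3G, a class 3 semaphorin known mainly from endothelium, went the other way and had the largest change of the 68 genes on their brightest probe sets. Its sole probe set was at 3.80, 4.41 and 3.92 in siKDM1A arrays against 5.29, 5.06 and 4.87 in control arrays. The siKDM1A arrays all lay below the control arrays, by −1.03 ± 0.17 (SE, 2.04-fold lower, adjusted p = 0.0074). The lowest siKDM1A value lies close to the lower quartile of all probe sets. SEMA3G thus opposed the secreted SEMA3C within class 3, where 7 genes were measured and the other 5 differed by −0.10 to 0.18.

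Most other semaphorins had small positive differences without passing. In all, 16 of 20 had a positive difference and the family median was 0.14. SEMA5A, a transmembrane semaphorin with thrombospondin repeats, was called on 1 of its 3 probe sets, at 7.77, 7.86 and 7.92 against 7.22, 7.32 and 7.29 in control arrays (0.57, adjusted p = 0.0052). On its brightest probe set the groups did not overlap either, but the difference was 0.26 (adjusted p = 0.22). SEMA3F and SEMA4D, with differences of −0.10 (adjusted p = 0.68) and −0.29 (adjusted p = 0.28), both had overlapping groups. The dimmer SEMA4D probe set differed by 0.16 (adjusted p = 0.42).

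Among semaphorin receptors, NRP2 rose and no plexin did. NRP2, the co-receptor of several class 3 semaphorins and of VEGF-C, was at 6.05, 6.27 and 6.33 in siKDM1A arrays against 5.73, 5.67 and 5.72 in control arrays. The groups were apart by a difference of 0.51 ± 0.10 (1.43-fold, adjusted p = 0.016). It carried 11 probe sets, of which 3 passed and all had a positive difference, from 0.03 to 0.57. The other called ones read 5.77, 5.80 and 5.84 against 5.42, 5.41 and 5.24 in control arrays (adjusted p = 0.018), and 5.69, 5.64 and 5.20 against 4.95, 4.89 and 4.98 in control arrays (adjusted p = 0.033). The call on the brightest probe set did not hold without siKDM1A b or any control array (adjusted p up to 0.070). The call at 0.018 was lost without control b or control c. That at 0.033 was lost without siKDM1A a, siKDM1A b or any control array. NRP1, the partner co-receptor, differed by 0.16 ± 0.11 (adjusted p = 0.52). Whether NRP1 and NRP2 differ in their response was not tested.

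The 9 plexins differed by −0.35 to 0.28, and 2 (PLXNB2 and PLXND1) had an unadjusted p under 0.05 in limma, with 0 called by the ANOVA. PLXNA1, a receptor for class 3 semaphorins with neuropilins, was at 10.94, 10.76 and 10.82 in siKDM1A arrays against 10.94, 10.55 and 10.65 in control arrays, with overlap (0.13, adjusted p = 0.63). PLXNB2, a receptor of class 4 semaphorins that is needed for granule cell migration in the cerebellum, was at 9.99, 9.62 and 9.92 against 10.42, 10.03 and 10.13 in control arrays (−0.35, adjusted p = 0.19). Its second probe set differed by 0.11, in the opposite direction. PLXND1 was higher without overlap on its brightest probe set, by 0.28, at an adjusted p of 0.18.

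The netrin system changed in 1 receptor. UNC5D, a receptor of the UNC5 family that binds the adhesion protein FLRT2, was at 7.54, 7.71 and 7.47 in siKDM1A arrays against 7.17, 7.12 and 7.00 in control arrays. Groups did not overlap on this sole probe set and the difference was 0.48 ± 0.10 (SE, 1.39-fold, adjusted p = 0.021). The call was lost without siKDM1A a, siKDM1A b, control b or control c, with an adjusted p of up to 0.11. The other netrin receptors differed by −0.01 to 0.17, with DCC, at a level below the lower quartile, at 0.17 (adjusted p = 0.39) and UNC5B at 0.02 (adjusted p = 0.95). The 4 netrins differed by −0.12 to 0.12, with 0 at an unadjusted p under 0.05 in limma and 0 called by the ANOVA. Among them NTN4, a netrin of basement membranes, was at 0.12 (adjusted p = 0.57) and NTN5 at −0.12 (adjusted p = 0.55).

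Most guidance genes had more than 1 probe set, which allowed the calls to be set against a second reading of the same gene on the same arrays. Of the 50 genes with several probe sets, 1 (SLIT2) was called on all, 10 on some and 39 on none, and 0 were called in both directions. EPHA4, EPHA1, SEMA5A and ROBO2 were called only off their brightest probe set, which brought the genes called on any probe set to 13, of which 11 were higher and 2 (SEMA3G and EPHA4) lower. Shares of all genes called on any, all or some of their probe sets were not computed, so these gene counts have no background here. Counted by probe set, 16 of 171 were higher and 2 lower, against 2.18% higher and 3.73% lower over all 54613 probe sets. These 54613 include probe sets that name no gene or several. A gene with more probe sets has more occasions to be called, and probe sets of 1 gene are not replicates.

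**Figure D3:**
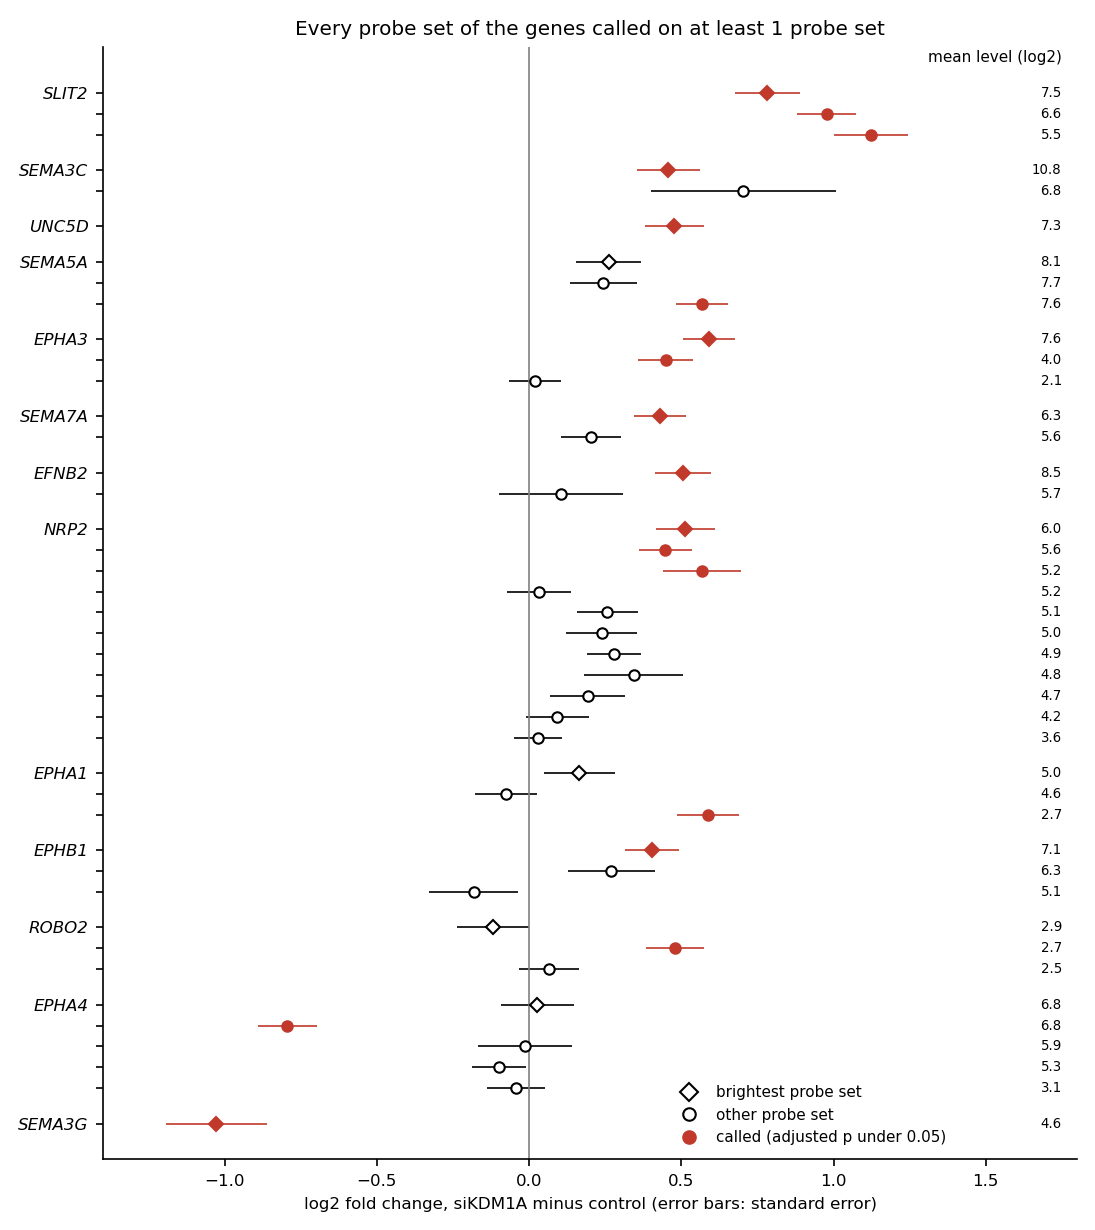
Log2 fold change (siKDM1A minus control) with 1 standard error for every probe set of the 13 genes called on at least 1, a diamond for the brightest probe set of each gene and circles for the others, filled where the adjusted p was under 0.05, with the mean log2 level of each at the right. SLIT2 passes on 3 of 3 and NRP2 on 3 of 11, and EPHA4 has 1 probe set at −0.79 beside 4 near 0.

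Beyond the called genes, differences in the list were more often positive than negative. A positive difference was found for 49 of 68 genes (72.1%), against 51.7% of all genes, and the median difference was 0.11 against 0.01. The mean over the 68 genes was 6.70, 6.65 and 6.70 in siKDM1A arrays against 6.64, 6.58 and 6.57 in control arrays, so that the groups were apart by little. Groups did not overlap for 19 genes, 15 above and 4 below, where 31.6% of all genes had groups apart, 13.5% wholly above and 18.1% wholly below. Of the 10 such genes that did not pass the test, EPHA2, EPHA8, EFNB1, SEMA5A, SEMA5B, PLXND1 and ROBO1 were higher and EPHB3, EPHB4 and PLXNB2 lower. No test was made over the list, since the genes share arrays and several share pathways.

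The genes were also read by level. Of the 68, 50 lay above the median level of all probe sets. These had a median difference of 0.12 with 38 above 0, and 8 passed as higher and 0 as lower in limma. At an unadjusted p under 0.05 in limma, 14 were higher and 3 lower, but the share of all genes at that threshold was not computed. All 13173 genes of such levels had a median of −0.02, with 4.59% called higher and 7.91% lower at the adjusted threshold. The 18 dimmer guidance genes had a median of 0.08, beside 0.04 for all 6602 genes of such levels, and SEMA3G was the gene among them that passed.

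**Figure D4:**
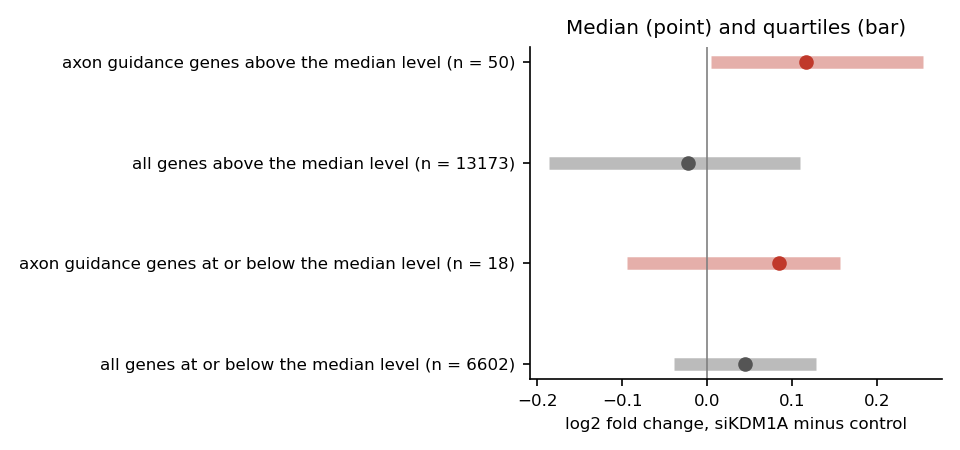
Median (point) and quartiles (bar) of the log2 fold change, siKDM1A minus control, for axon guidance genes and for all genes, above and at or below the median level of all probe sets (5.12), with 1 probe set per gene. The median of the 50 brighter guidance genes is 0.12 beside −0.02 for all 13173 brighter genes, and that of the 18 dimmer ones 0.08 beside 0.04.

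For the 59 genes that did not pass, the intervals on the brightest probe set bounded most differences in array level. Standard errors of the 68 genes ran from 0.08 to 0.20 with a median of 0.10. For 45 of the 59, the 95% interval lay within 0.5 on either side of 0, and for all 59 within 1. A doubling or a fall of the same size therefore lay outside the intervals of all 59 on the brightest probe set. The number of arrays limits this precision, and RMA compresses differences at low levels, with 4 of the 68 genes below the lower quartile. An interval on 1 probe set also does not bound the gene. For EPHA4 the brightest probe set gave −0.24 to 0.30, and another of nearly the same brightness −1.02 to −0.57.

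Signalling partners of these families were read from a list of 79 textbook genes, of which 74 were measured. In all, 9 rose, 3 fell and 62 did not pass, which is 16.2% called against 8.92% of all genes (3.45% higher and 5.46% lower). The median difference was 0.01. Most partners were bright, with 9 of the 74 below the median level of all probe sets. Among all genes above that level 4.59% were called higher and 7.91% lower, so that 8.92% is not a share at matched level. Among partners of Eph receptors and ephrins 2 of 17 rose and 2 fell, among those of semaphorins and plexins 3 of 22 rose and 1 fell, and among those of Slits and Robo receptors 2 of 13 rose. Of 14 netrin partners 0 passed in limma, and 3 had an unadjusted p under 0.05. Of 8 further cues outside the families, 2 rose.

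The partner with the largest rise was FLRT3, a transmembrane protein that binds Robo1 and UNC5 receptors, at 9.05, 9.15 and 8.87 in siKDM1A arrays against 7.98, 8.23 and 8.35 in control arrays. Its groups did not overlap (0.84, adjusted p = 0.0039). RND3, a small GTPase that binds plexins, was at 10.58, 10.78 and 10.62 against 9.99, 10.04 and 10.01 in control arrays, again without overlap (0.64, adjusted p = 0.0034). RRAS, a GTPase that plexins inactivate, rose by 0.62 (adjusted p = 0.022), and ABL2, a tyrosine kinase of the Abl family that acts on the actin skeleton, by 0.61 (adjusted p = 0.012). RRAS did not pass without any 1 of the control arrays, nor ABL2 without control b or control c. The other 5 that rose, CHN1, RGMB, FYN, FLRT2 and MICAL2, did so by 0.35 to 0.54. Among the genes that fell was DPYSL4, a collapsin response mediator protein of the semaphorin pathway, at 5.85, 5.83 and 6.03 against 6.77, 6.54 and 6.74 in control arrays (−0.78, adjusted p = 0.0026). NGEF, the exchange factor ephexin that Eph receptors act on, fell by 0.61 (adjusted p = 0.0073), and the adaptor NCK2 by 0.41 (adjusted p = 0.046). With all probe sets of a gene averaged, DPYSL4 differed by −0.23 (adjusted p = 0.068) and NGEF by −0.24 (adjusted p = 0.11), and neither passed. NCK2 did not pass when any array other than siKDM1A a was left out (adjusted p up to 0.18), with the replicate letter as a block (0.071) or after cyclic loess (0.088).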

How the data were processed

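Total RNA of 6 ONS-76 cultures was hybridised to Affymetrix U133 Plus 2.0 arrays. The authors deposited log2 values after RMA in Partek, version not given in the sources used here. RMA takes quantile-normalised probes and compresses differences at low levels. The 62 Affymetrix control probe sets were left out, and 54613 were fitted with limma 3.58.1 in R 4.3.3 (lmFit and eBayes, siKDM1A minus control, two-sided, Benjamini-Hochberg adjustment over all, threshold 0.05). The fit was tested on simulated data. Gene symbols came from the platform annotation, in which 41091 probe sets name 1 gene, 1801 several and 11721 none, and only the first were named. All 171 probe sets of the members had the same symbol in the RefSeq table of GRCh38.p14. Each gene was read on its brightest probe set, by the mean level of the 6 arrays. Array correlations were 0.991 to 0.998 and 0 pairs were identical.

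The text names every member called on any probe set, the brightest and the most changed member of each family among those not called, up to 4 called partners in each direction, by size of change, and KDM1A and KDM5A. The other members, partners and markers named were chosen after their values were seen. Members and lists were chosen with earlier results of these data known, and a list is described by counts and its median, with no test. Settings tried beside these were cyclic loess, centring of each array on its median, removal of dim probe sets, a prior that is robust and follows intensity, the replicate letter as a block, the methods' one-way ANOVA, gene levels averaged over probe sets, removal of _x_at and _s_at probe sets, and leaving out each array in turn.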

Additional observations from a re-analysis of the deposited data

How the results depend on the processing

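On their brightest probe sets, SLIT2 and SEMA3G kept direction and call under every alternative except the methods' one-way ANOVA (adjusted p = 0.085 and 0.15) and, for SEMA3G, the filter on dim probe sets, which removed it. EPHA3 lost its call only where _x_at and _s_at probe sets were left out (0.94), and the other genes called higher lost theirs in 4 to 8 of 14 alternatives. The ANOVA called 1 guidance gene higher (EPHA3) and 0 lower, and 1 partner higher (RND3) and 0 lower, and over all probe sets it called 275 higher and 401 lower against 1193 and 2037 in limma. Leaving out 1 array gave 2 to 8 guidance genes higher and 1 lower, and 2 to 9 partners higher and 2 to 4 lower. Partners called lower numbered 5 after median centring, 8 after the filter on dim probe sets and 6 with an intensity trend and robust prior, which also called 2 guidance genes lower. With the filter, the lower gene was EPHB4 (adjusted p = 0.049). Of all calls, 63.1% were lower, against 70.0% after median centring and 54.8% after cyclic loess. The median over the guidance genes stayed between 0.08 and 0.13 in the 12 alternatives for which it was computed, over 68 genes in each but the filter on dim probe sets, which left 52. PLXNB2 turned to 0.11 without _x_at and _s_at probe sets, and UNC5B to −0.0044 after median centring and between −0.043 and 0.133 with 1 array left out. Deviations of arrays with the same replicate letter had correlations of 0.11, 0.23 and −0.13, and 3 of 6 arrays were closest to their own letter. These values cannot settle whether the letters pair the arrays. With the letter as a block 7 guidance genes rose, all of those above but EPHB1 (adjusted p = 0.063), and 1 fell, with 6 partners higher and 2 lower. Causes of these shifts were not tested. Levels below the lower quartile, as for ROBO2 and the called EPHA1 probe set, limit what these probe sets can show.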
